A study of Mus musculus with 6 samples.

Results

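Hoxa and Hoxb genes encode homeodomain transcription factors that lie side by side in a pair of gene clusters. The genes followed here were Hoxa2, Hoxa3, Hoxa5, Hoxa7, Hoxa9 and Hoxa10 on chromosome 6 and Hoxb2, Hoxb3, Hoxb4 and Hoxb5 on chromosome 11, chosen by symbol. They are 10 genes, 9 of them among the 14455 gene symbols that at least 1 RNA library listed. They were measured by total RNA sequencing of LSK cells, sorted from mouse bone marrow as negative for lineage markers and positive for Sca-1 and c-Kit, a gate rich in hematopoietic stem cells and multipotent progenitors. The groups were young KO and young WT cells, taken 4 weeks after pI-pC was given, and old KO and old WT cells, taken 8 months after it, with 1 library each. All mice were C57BL/6, and KO stands for the conditional Setd2 knockout. Setd2 is the enzyme that trimethylates lysine 36 of histone H3, and pI-pC is a double-stranded RNA used to switch on deletion of conditional alleles. The labels name neither the Cre transgene nor the number of mice behind a library. With 1 library per group there was no replicate check, no difference has a p-value, and each describes these libraries alone.

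In vertebrates the Hox genes of a cluster are expressed in overlapping domains whose order follows their position, with low-numbered genes towards the 3′ end of the cluster. Their proteins bind DNA together with the related cofactors Pbx and Meis. In blood, Hox genes of the A and B clusters are most active in stem and early progenitor cells and are shut down as cells mature. MLL (Kmt2a) complexes keep them active and Polycomb complexes repress them. Hoxa9 is needed for full stem cell repopulation in mice, and forced Hoxb4 expands mouse stem cells.

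Levels are given as FPKM, fragments per kilobase of transcript normalised to library depth, divided by a scaling factor per library. FPKM is per length, so that levels of different genes can be compared. The files list only genes at an FPKM of 0.5 or more, and a gene that is not listed lay below that. Of the 10 genes, 7 were listed in all 4 libraries, Hoxa2 in the 2 WT libraries, Hoxb2 in old KO cells alone and Hoxb5 in none. In mice an Hoxb5 reporter marks long-term stem cells, which are a small part of the LSK fraction. Intervals below are 95% counting intervals at an assumed transcript length of 2 kb, where an FPKM of 1 came to 17.9 to 19.1 fragments. They cover counting error only, not differences between animals or preparations.

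Both genes of the sorting gate were listed in every library. Kit stood at 52.8 in young KO and 60.7 in young WT cells, and at 41.3 in old KO and 44.5 in old WT cells. Ly6a, which encodes Sca-1, stood at 3.16 in young KO and 4.84 in young WT cells, and at 4.20 in old KO and 8.80 in old WT cells. Setd2 itself stood at 12.3 in young KO and 14.1 in young WT cells and at 15.6 in old KO and 15.3 in old WT cells, a gene-level value that does not check a deletion of single exons. The 7 markers of stem and multipotent progenitor cells, all listed everywhere, summed to 161 in young KO and 178 in young WT cells and to 173 in old KO and 158 in old WT cells. These sums rest mostly on Flt3, Cd34 and Cd48, and 4 of the 7 were lower in old KO than in old WT cells, Hlf (-1.12), Slamf1 (-0.45), Mecom (-0.32) and Procr (-0.05). The summed level of 6 red cell precursor genes, all listed in every library, was 456 in young KO and 161 in young WT cells and 115 in old KO and 200 in old WT cells. In old cells 5 of these 6 were lower in KO, while Hbb-bs stood at 28.2 in old KO and 12.2 in old WT cells. That of 11 granulocyte and monocyte genes was 687 in young KO and 738 in young WT cells and 1799 in old KO and 923 in old WT cells, with Camp, Ltf, Ngp and S100a9 unlisted in both young libraries. That of 7 plasma cell genes was 29.0 in young KO and 18.3 in young WT cells and 165 in old KO and 2084 in old WT cells, with Tnfrsf17 and Ccr10 unlisted in both young libraries. That of 4 megakaryocyte genes was 47.8 in young KO and 47.6 in young WT cells and 21.5 in old KO and 38.1 in old WT cells. That of 5 B cell genes was 1.42 in young KO cells, with none listed in young WT cells, and 7.51 in old KO and 24.1 in old WT cells. That of 8 stromal and endothelial genes was 21.9 in young KO and 16.2 in young WT cells and 14.2 in old KO and 12.8 in old WT cells, with Pdgfra and Prrx1 unlisted in all 4 libraries. Among them Col1a1 stood at 5.47 and Col1a2 at 1.61 in young KO cells, and neither was listed in young WT cells. Cxcl12 stood at 3.64 in young KO and 2.39 in young WT cells. The old sums of this list rest mostly on Pecam1, at 14.2 in old KO and 9.89 in old WT cells. No other gene of the list was listed in old KO cells. Col1a1, at 1.33, Col1a2 and Cdh5 were listed in old WT and not in old KO cells, opposite in direction to the sum. In bulk RNA, fewer cells of a type and less RNA per cell cannot be told apart, and the part of these markers in the Hox values was not tested.

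In the mm10 coordinates of the files the Hoxa members covered 78.4 kb and the listed Hoxb members 35.7 kb. Along the A cluster lay Hoxa2 (chr6:52162417-52164831), Hoxa3 (chr6:52169062-52213336), Hoxa5 (chr6:52201754-52204587), Hoxa7 (chr6:52214491-52221854), Hoxa9 (chr6:52223100-52231089) and Hoxa10 (chr6:52231197-52240854), all on the minus strand. Along the B cluster lay Hoxb2 (chr11:96350525-96354012), Hoxb3 (chr11:96323326-96347930) and Hoxb4 (chr11:96318267-96321638), on the plus strand. Hoxa3, annotated over 44275 bp, spans Hoxa4, Hoxa5 and Hoxa6 entirely, so that its reads and theirs could be split in more than 1 way. Hoxb2 lies within Hoxb3os, a non-coding RNA of the opposite strand, which also overlaps 4859 bp of Hoxb3, and the sources used here do not say whether counting used strand. RefSeq promoters of build GRCm38.p6 matched 7 of the 10 members, with 2 entries for Hoxa10, and none was matched for Hoxb2, Hoxb3 and Hoxb5. The 250 bases upstream of the start are shown for 2 genes that were lower in KO than in WT cells at both ages, Hoxa2 (chr6:52164832-52165081, minus strand) and Hoxa5 (chr6:52204588-52204837, minus strand). They are set beside Hoxa7 (chr6:52218574-52218823, minus strand), the listed member of the A cluster that differed least in young cells, and Hoxb4 (chr11:96318017-96318266, plus strand), the most abundant of the B cluster. Each runs 5′ to 3′ up to the base before the RefSeq start, which for Hoxa7 lies inside the locus of the files, with CG dinucleotides, the sites of DNA methylation, in capitals.
Hoxa2: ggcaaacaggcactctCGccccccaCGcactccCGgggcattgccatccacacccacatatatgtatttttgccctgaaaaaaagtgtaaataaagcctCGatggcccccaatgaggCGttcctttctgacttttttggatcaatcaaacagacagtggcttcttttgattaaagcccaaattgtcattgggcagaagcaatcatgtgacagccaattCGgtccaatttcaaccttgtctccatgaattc
Hoxa5: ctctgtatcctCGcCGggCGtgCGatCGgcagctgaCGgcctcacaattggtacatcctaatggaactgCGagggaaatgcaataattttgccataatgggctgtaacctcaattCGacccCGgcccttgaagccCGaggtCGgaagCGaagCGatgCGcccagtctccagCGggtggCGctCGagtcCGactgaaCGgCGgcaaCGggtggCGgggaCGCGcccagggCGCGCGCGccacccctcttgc
Hoxa7: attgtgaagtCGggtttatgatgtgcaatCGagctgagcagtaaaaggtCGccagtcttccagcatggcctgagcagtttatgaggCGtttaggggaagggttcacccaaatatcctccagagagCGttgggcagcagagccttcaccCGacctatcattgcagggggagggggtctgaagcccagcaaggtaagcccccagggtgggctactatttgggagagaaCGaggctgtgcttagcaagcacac
Hoxb4: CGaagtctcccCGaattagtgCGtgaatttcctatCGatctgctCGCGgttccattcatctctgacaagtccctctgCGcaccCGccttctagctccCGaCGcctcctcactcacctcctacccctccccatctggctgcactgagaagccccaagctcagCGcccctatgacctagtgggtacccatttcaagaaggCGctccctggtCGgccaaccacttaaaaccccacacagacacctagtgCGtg

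The Hoxa5 promoter held 28 CG dinucleotides, more than 92.4% of 32851 promoters of the same length, whose median was 6. Hoxb4 held 14, Hoxa7 held 7 and Hoxa2 held 6. Of the others, the Hoxa10 entries held 20 and 7, Hoxa3 held 18 and Hoxa9 held 3. The CG counts of Hoxa2 and Hoxa5, both lower in KO cells, were thus far apart. The Pbx-Hox motif TGATTNAT, searched on both strands, was found once in the Hoxa2 promoter, from 111 to 104 bases upstream on the minus strand, and in no other member promoter, against 2.82% of all promoters. The Meis motif TGACAG was found in the promoters of Hoxa2 and Hoxa3, against 15.9% of all. CCAAT occurred 4 times in Hoxa2 and once each in Hoxa5 and 1 of the 2 Hoxa10 entries, against 33.8% of all promoters with any. TATAAA was found only in that same Hoxa10 entry, from 160 to 155 bases upstream on the minus strand, against 12.4% of all promoters. No match overlapped one of another motif. These matches describe letters in a window and do not show binding.

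Levels in LSK cells did not fall off evenly along the clusters. Among the members, Hoxa5 and Hoxa9 held the 2 highest places in all 4 libraries, Hoxb4 followed as the third, and Hoxa10 and Hoxb3 stayed near 1. In young KO cells the order was Hoxa9 at 5.63, Hoxa5 at 4.44, Hoxb4 at 4.26, Hoxa3 at 3.10, Hoxa7 at 2.45, Hoxa10 at 0.900 and Hoxb3 at 0.880. In young WT cells it was Hoxa5 at 7.71, Hoxa9 at 6.20, Hoxb4 at 5.11, Hoxa3 at 3.52, Hoxa7 at 2.61, Hoxa2 at 2.42, Hoxb3 at 1.25 and Hoxa10 at 1.22. In that library every pair of neighbours in the order had overlapping counting intervals. In old KO cells Hoxa9, Hoxa5, Hoxb4 and Hoxa7 stood close together between 3.79 and 3.12. The interval of Hoxa7 lay clear of that of the next member, Hoxb3 at 1.17. In old WT cells Hoxa5 at 6.13 and Hoxa9 at 4.56 stood above the rest, and the interval of Hoxa9 lay clear of that of Hoxb4 at 2.60.

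**Figure D1:**
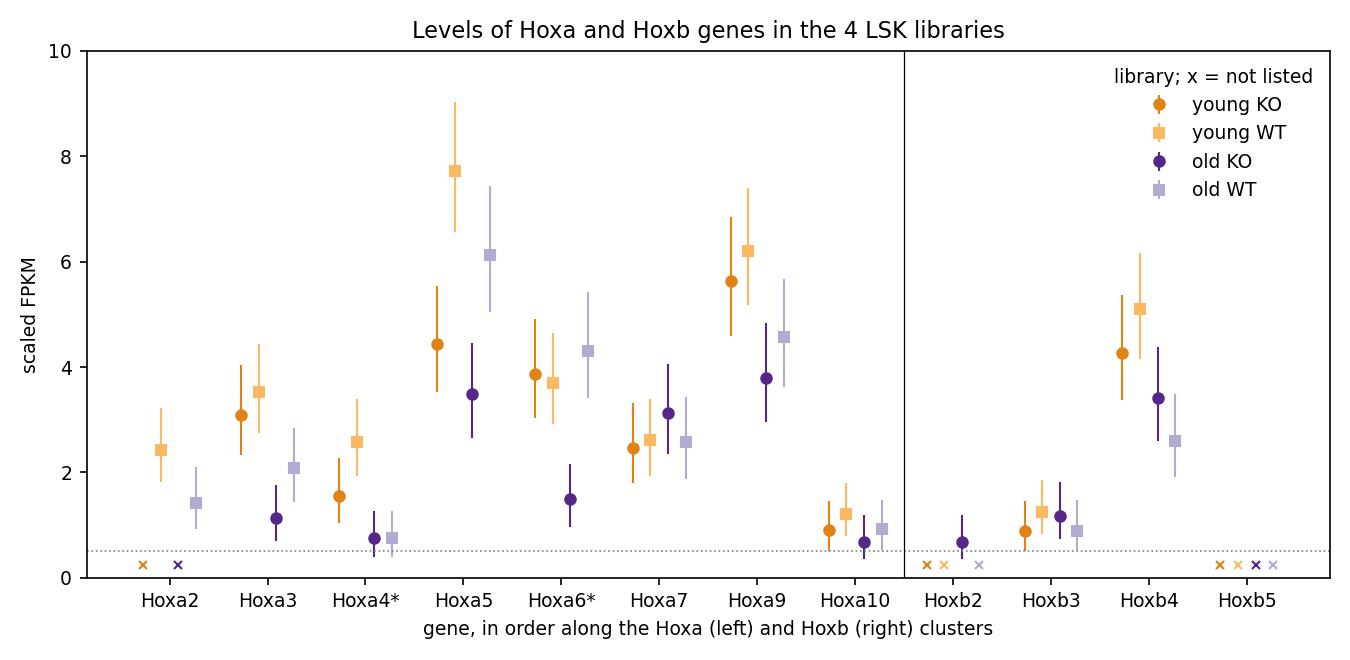
Scaled FPKM of each gene in the 4 libraries (colours), in order along the clusters, with 95% counting intervals at 2 kb; crosses mark libraries that do not list the gene, the dotted line is the listing limit of 0.5, and asterisks mark listed genes of the A cluster outside the 10. Hoxa5 stands lower in KO than in WT at both ages, while Hoxa7 stays between 2.45 and 3.12.

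On the log2(FPKM + 1) scale Hoxa2 and Hoxa5 had the largest KO minus WT differences of the 10 at both ages. In old cells that order turns with the pseudocount: with 0.1 the difference was -0.81 for Hoxa3 and -0.80 for Hoxa5, and with none it was -0.86 for Hoxa3 and -0.82 for Hoxa5. Hoxa2, which patterns the hindbrain and branchial arches in embryos, was not listed in young KO and stood at 2.42 in young WT cells; it was not listed in old KO and stood at 1.41 in old WT cells. With an unlisted value at the lowest that its file lists, Hoxa2 was lower by at least 4.76-fold in young KO cells. The same bound in old KO cells was at least 2.75-fold. Of 11392 genes at 1 or more in both WT libraries, 11 (0.0966%) were listed in neither KO library, Hoxa2 among them. The other way round, of 11286 genes at 1 or more in both KO libraries, 7 (0.062%) were listed in neither WT library. Both shares are over genes of every level, and highly expressed genes could hardly fall below the limit. The level of Hoxa2 in the KO libraries is known only as below the limit. Its low WT level in old cells, with an interval of 0.922 to 2.10, limits what can be said of the size.

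Hoxa5, a gene whose forced expression favours myeloid over erythroid fate in human progenitors, was listed in every library. It stood at 4.44 (3.52 to 5.54) in young KO and 7.71 (6.57 to 9.03) in young WT cells, and at 3.48 (2.65 to 4.45) in old KO and 6.13 (5.05 to 7.43) in old WT cells. Both KO values lay below both WT values, and the counting intervals of KO and WT did not overlap at either age. The KO to WT ratio was 0.576 (0.439 to 0.755) in young and 0.568 (0.415 to 0.777) in old cells. As differences of log2(FPKM + 1), a scale on which differences of weakly expressed genes come out too small, these were -0.68 in young and -0.67 in old cells. Among all measured genes, 2.32% had a lower difference in young and 5.04% in old cells. The Hoxa5 locus lies within that of Hoxa3, and the counting intervals do not cover how reads were split between them.

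Among the remaining Hoxa members, Hoxa3 had an old difference of about the size of that of Hoxa5. Hoxa3, a gene of the thymus and pharyngeal arches, stood at 3.10 in young KO and 3.52 in young WT cells, and at 1.14 (0.694 to 1.75) in old KO and 2.08 (1.44 to 2.84) in old WT cells. Its ratio was 0.880 (0.619 to 1.25) in young and 0.549 (0.319 to 0.947) in old cells. The interval of the ratio held 1 in young and not in old cells, although the levels' own intervals overlapped in both. Hoxa9 stood at 5.63 in young KO and 6.20 in young WT cells and at 3.79 in old KO and 4.56 in old WT cells. Its ratios of 0.909 (0.699 to 1.18) and 0.832 (0.601 to 1.15) did not differ from 1 beyond counting error. Hoxa10, another gene whose forced expression expands mouse progenitors, stood at 0.900 in young KO and 1.22 in young WT cells and at 0.681 in old KO and 0.928 in old WT cells, at 11.99 to 24.9 fragments, too few to tell its ratios of 0.740 and 0.734 from 1. Hoxa7, like Hoxa9 a known target of MLL fusion proteins, stood at 2.45 in young KO and 2.61 in young WT cells and at 3.12 in old KO and 2.59 in old WT cells. Of the 7 members listed everywhere it varied least, 1.27-fold between its lowest and highest library.

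Hoxb3 and Hoxb4 did not differ by genotype beyond counting error at either age. Hoxb4 stood at 4.26 (3.37 to 5.36) in young KO and 5.11 (4.15 to 6.16) in young WT cells, and at 3.41 (2.60 to 4.39) in old KO and 2.60 (1.92 to 3.50) in old WT cells. Its ratios were 0.834 (0.620 to 1.12) in young and 1.31 (0.893 to 1.93) in old cells. Hoxb3, its neighbour in the cluster, stood at 0.880 in young KO and 1.25 in young WT cells and at 1.17 in old KO and 0.891 in old WT cells, with ratios of 0.703 (0.375 to 1.32) and 1.32 (0.682 to 2.54) in young and old cells. Hoxb2 was listed in old KO cells alone, at 0.680, close enough to the limit that its absence elsewhere fixes only a ratio of at least 1.33. The non-coding Hoxb3os, which shares that locus, stood at 0.582 in young KO and 0.666 in young WT cells and at 0.760 in old KO and 0.776 in old WT cells. Hoxb5 was below the limit throughout, and Hoxb5os, the non-coding RNA opposite it, was listed only in young KO cells, at 0.598.

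**Figure D2:**
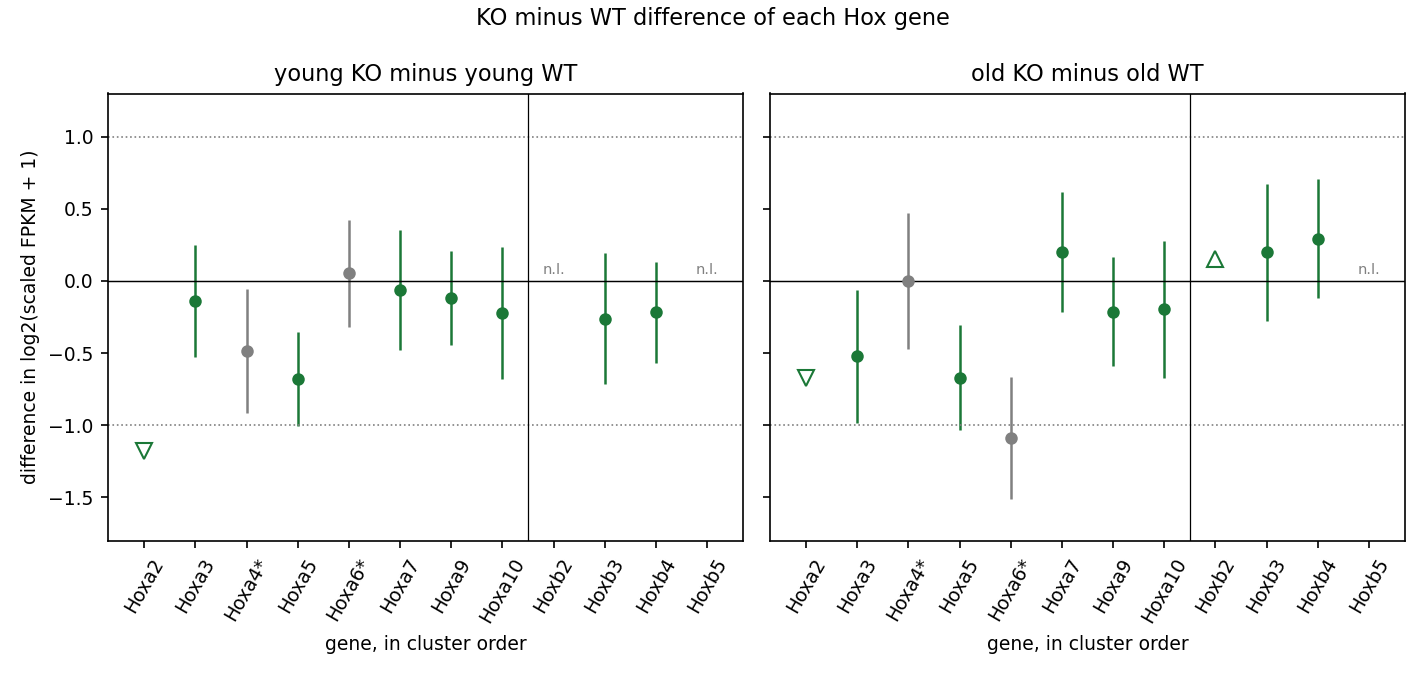
KO minus WT difference in log2(scaled FPKM + 1) for each gene in young (left) and old (right) cells, with 95% counting intervals; open triangles are bounds where 1 library did not list the gene, n.l. marks genes listed in neither, grey points are listed genes outside the 10, and dotted lines mark a 2-fold difference. Hoxa5 lies at -0.68 and -0.67, and Hoxa7, Hoxb3 and Hoxb4 lie below 0 in young and above 0 in old cells.

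Most differences of the members stayed under 2-fold, as did those of most measured genes. A gene counted as measured in a comparison when it reached 1 in at least 1 of its 2 libraries, and as 2-fold higher or lower at a difference of 1 on the log2(FPKM + 1) scale. In young cells 8 members were measured and 1, Hoxa2, was 2-fold lower, where 1.73% of 12401 measured genes were 2-fold higher or lower, 0.702% lower and 1.02% higher. With scaling 127 genes were higher and 87 lower, and without it 99 were higher and 118 lower. Hoxa2, Hoxa10 and Hoxb3 passed the filter through their WT level alone, so they had to lie below 0, and counts over the measured members are descriptions only. Their median was -0.22 beside 0.01 over all genes. In old cells 7 members were measured, without Hoxa10 and Hoxb2, which stayed under 1, and none was 2-fold higher or lower, where 4.29% of 12485 genes were, 2.63% lower and 1.66% higher. Hoxa2 passed through its WT level alone and Hoxb3 through its KO level alone. The median was -0.21 beside 0.01 over all genes. With Hoxa3 left out for its overlapping locus, but Hoxa5, which lies within that locus, kept, the old median was -0.0072. With Hoxa4 and Hoxa6 added it was -0.37. Of the 7 members listed in every library, whatever their level, 7 lay below 0 in young cells, at a median of -0.22, where 49.1% of measured genes did. In old cells 4 of these 7 did, at a median of -0.20, where 48.7% of measured genes did. As a plain ratio, Hoxa2 alone was at least 2-fold lower at both ages, where 2.61% of genes were in young and 5.76% in old cells.

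**Figure D3:**
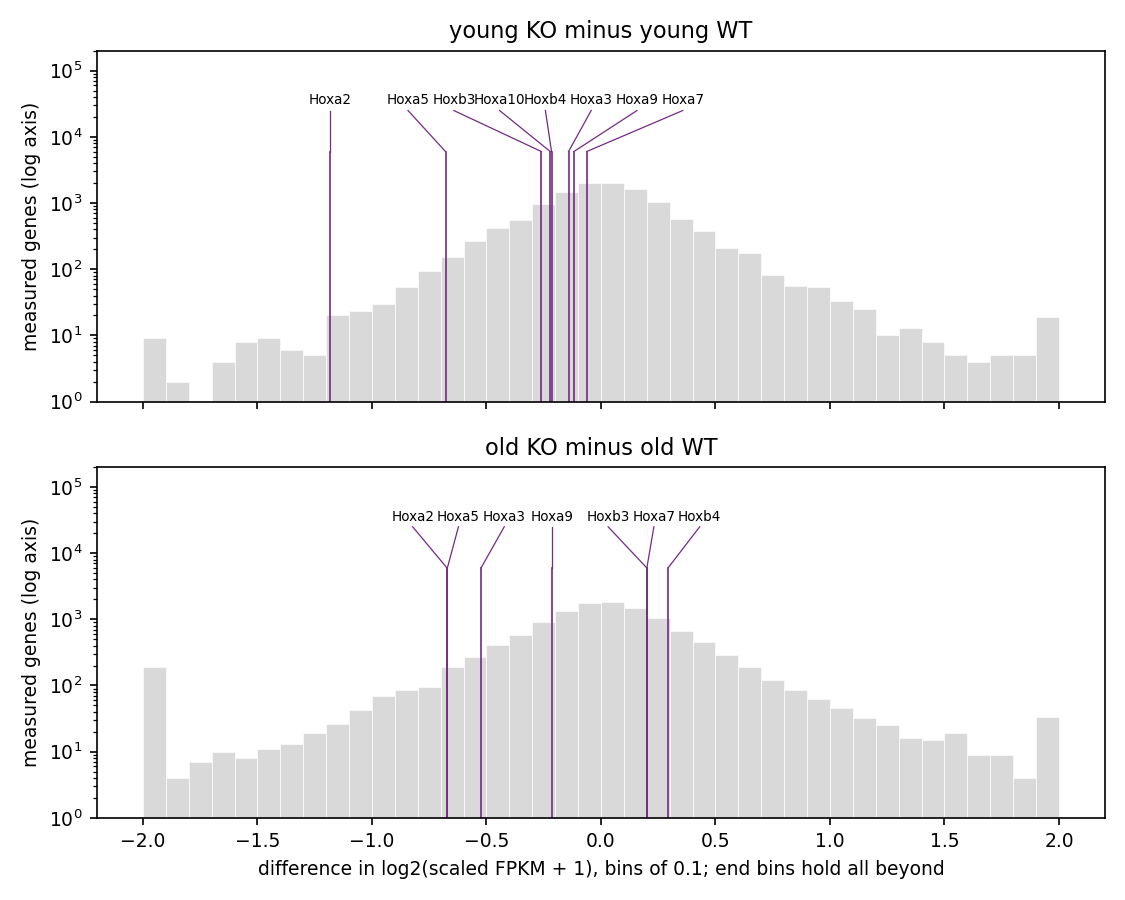
Number of measured genes (log axis) by KO minus WT difference in log2(scaled FPKM + 1), in young (top) and old (bottom) cells, with a line at each measured member. Hoxa2, a bound, is the lowest member in both, at -1.18 in young and -0.67 in old cells.

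Summed over the 5 Hoxa members listed everywhere, the level was 16.5 in young KO and 21.2 in young WT cells and 12.2 in old KO and 16.3 in old WT cells. Over Hoxb3 and Hoxb4 it was 5.14 in young KO and 6.36 in young WT cells, and 4.58 in old KO and 3.49 in old WT cells. The Hoxa sum was thus lower in KO cells at both ages, and the Hoxb sum only in young cells, a contrast that could not be tested. Most of the Hoxa gap came from Hoxa5, whose level differed by more than that of any other of the 5 at both ages.

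A pair of A cluster genes outside the 10, Hoxa4 and Hoxa6, was listed in every library and lies to either side of Hoxa5. Hoxa4 stood at 1.55 in young KO and 2.58 in young WT cells, a ratio of 0.603 (0.381 to 0.956), and at 0.748 in old KO and 0.751 in old WT cells. Hoxa6 stood at 3.87 in young KO and 3.69 in young WT cells, and at 1.49 (0.965 to 2.16) in old KO and 4.30 (3.41 to 5.42) in old WT cells. Its old ratio was 0.347 (0.223 to 0.541), the only 2-fold difference on the log2(FPKM + 1) scale among the listed Hox genes of old cells, at -1.09. The counting interval of the KO to WT ratio thus left out 1 for Hoxa4 in young and for Hoxa3 and Hoxa6 in old cells. It did so for Hoxa5 in both young and old cells. The Hoxa3 locus spans the loci of Hoxa4, Hoxa5 and Hoxa6, and these intervals do not cover how reads were split between them. Whether the ages differ was not tested. Of the 18 Hoxc and Hoxd genes looked for, none was listed in any library. Flanking the Hoxa cluster, Skap2 stood at 9.16 in young KO and 12.6 in young WT cells and at 8.59 in old KO and 8.27 in old WT cells.

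Old and young cells also differed in these genes within a genotype. Of the 7 members listed in every library, 7 lay below 0 in old minus young WT, where 50.3% of measured genes did, at a median of -0.29 beside -0.00 over all genes. None of the 8 measured members was 2-fold lower, where 1.33% of genes were. Hoxb4 had the lowest ratio of old WT to young WT, 0.509 (0.359 to 0.721), followed by Hoxa2 at 0.583 (0.360 to 0.944) and Hoxa3 at 0.590 (0.396 to 0.879). In old minus young KO 5 of the 7 members listed in every library lay below 0, where 49.5% of measured genes did. None of the 6 measured members was 2-fold lower, where 2.2% of genes were. Hoxa3 had the lowest ratio of old KO to young KO, 0.368 (0.221 to 0.614), and came out as 2-fold lower on other scales. Its difference of -0.94 was -1.01 with upper-quartile scaling, -1.13 with a pseudocount of 0.5 and -1.37 with one of 0.1, and as a plain ratio it alone of the members was 2-fold lower, where 5.93% of genes were. The ratio of old KO to young KO for Hoxa9 was 0.674 (0.494 to 0.919). Outside the 10, Hoxa4 was 3.43-fold lower in old WT than in young WT cells and 2.08-fold lower in old KO than in young KO cells. Hoxa6 was 2.59-fold lower in old KO than in young KO cells, while its ratio of old WT to young WT was 1.17. The age pairs differed in more than age: Xist, which coats the inactive X chromosome of females, was listed only in old cells, at 280 in KO and 291 in WT, and the Y-linked Ddx3y only in young cells, at 6.72 in KO and 5.23 in WT. Age, sex and preparation therefore cannot be told apart here. The plasma cell and granulocyte markers given above differed between the ages too.

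Profiles of the 7 members listed everywhere were compared by the root mean square distance between their log2(FPKM + 1) levels over the 4 libraries, after each was centred on its own mean. Hoxa7 and Hoxb3 were closest, at 0.10, followed by the neighbours Hoxa9 and Hoxa10 at 0.12. Hoxa3 and Hoxa7 were farthest apart, at 0.50. The distance between Hoxa3 and Hoxa5, whose loci overlap, was 0.30. With 4 libraries these distances are descriptions only, and low genes such as Hoxb3 and Hoxa10 vary little on this scale.

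Meis1, which encodes a cofactor that binds DNA with Hox proteins, stood above every listed Hox gene in each library. It stood at 11.2 in young KO and 12.2 in young WT cells and at 9.35 in old KO and 9.68 in old WT cells. Of 9 cofactor genes 6 were measured, 4 of them below and 2 above 0 at each age, with medians of -0.20 in young and -0.09 in old cells and none 2-fold higher or lower. Over all measured genes 49.1% in young and 48.7% in old cells lay below 0, and 1.73% and 4.29% were 2-fold higher or lower. Pbx2 had the largest young difference, -0.48, and stood 0.30 higher in old KO than in old WT cells. Pbx3 had the largest old difference, -0.46, at 0.777 in old KO and 1.45 in old WT cells.

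Regulators of Hox transcription showed no shared direction. Of 15 genes that activate Hox transcription 12 were measured, 6 above and 6 below 0 at each age, with medians of 0.01 in young and 0.03 in old cells. Of all measured genes 49.1% lay below 0 in young and 48.7% in old cells. Kmt2a, the MLL histone H3 lysine 4 methyltransferase, stood at 24.6 in young KO and 21.9 in young WT cells and at 23.0 in old KO and 23.1 in old WT cells. Mllt3, a partner in MLL fusions that reads histone acylation, had the largest difference at both ages, of opposite sign, at 4.78 in young KO and 3.50 in young WT cells and at 2.42 in old KO and 4.42 in old WT cells. All 15 repressing genes, of the Polycomb system, were measured, with medians of -0.00 in young and -0.10 in old cells. In young cells 7 lay above and 8 below 0 and none was 2-fold higher or lower, where 1.73% of measured genes were. In old cells 6 lay above and 9 below 0, and 1, Cbx7, was 2-fold lower, where 2.63% of measured genes were. Cbx7, a chromodomain subunit, stood at 0.655 in old KO and 3.23 in old WT cells. The Polycomb subunit Suz12 stood at 13.1 in old KO and 23.7 in old WT cells, and at 23.3 in both young libraries.

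Of 18 genes described as targets of Hoxa9 and Meis1, 16 were measured, 7 above and 9 below 0 at each age, with medians of -0.16 in young and -0.08 in old cells. Of all measured genes 49.1% lay below 0 in young and 48.7% in old cells. None of the 16 was 2-fold higher or lower in young cells, where 1.73% of measured genes were. In old cells 2 were 2-fold lower, where 2.63% of measured genes were. Trib2, a pseudokinase, stood at 5.53 in young KO and 3.69 in young WT cells and at 2.08 in old KO and 6.06 in old WT cells. Hlf, a transcription factor of stem cells, stood at 14.1 in young KO and 11.03 in young WT cells and at 6.23 in old KO and 14.7 in old WT cells. Id2, an inhibitor of helix-loop-helix factors, had the largest old difference upward, 0.93, at 11.6 in old KO and 5.61 in old WT cells. Hlf is also 1 of the 7 stem and multipotent progenitor markers, and whether those markers bear on the Hoxa values was not tested.

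**Figure D4:**
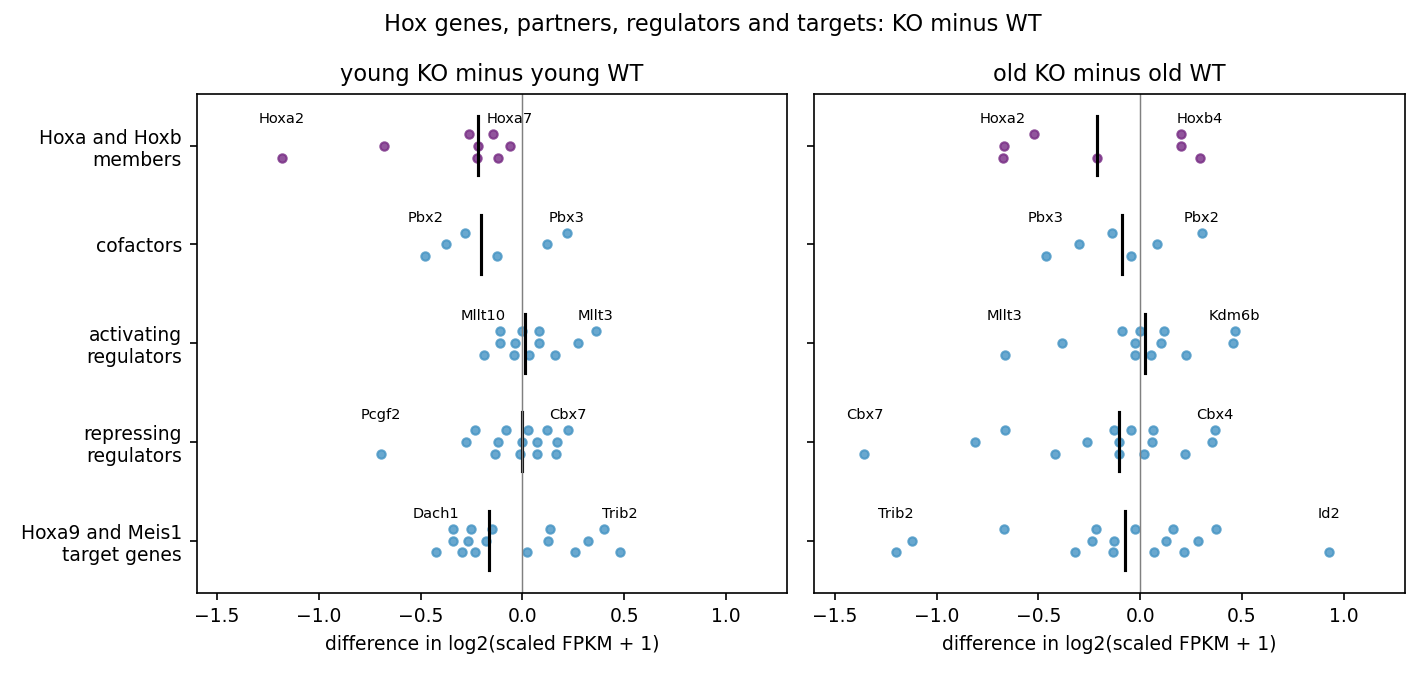
KO minus WT difference in log2(scaled FPKM + 1) of the measured Hoxa and Hoxb members and of the measured genes of 4 related lists, in young (left) and old (right) cells; each point is a gene, black bars are medians, and the lowest and highest gene of each list is named. The lowest and highest points of all lists together are in the old comparison, Cbx7 of the repressing regulators at -1.35 and Id2 of the target genes at 0.93.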

How the data were processed

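The deposited files give 1 FPKM per gene and library, per the file headers, with only genes at 0.5 or more. The submitters' processing notes name StringTie 1.3.0, HISAT2 2.0.4, Trimmomatic, FastQC and CASAVA without giving their order, and the build mm10 (GRCm38). The 2 bisulfite samples were not analysed here.

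Rows were summed by symbol. Libraries were divided by median-of-ratios factors over 12152 genes listed in all 4, which were 0.982, 1.07, 0.974 and 0.983 for young KO, young WT, old KO and old WT. An unlisted gene was set to the lowest value its file lists. Differences used a pseudocount of 1. FPKM times length of loci under 1500 bp fell within 0.02 steps of whole multiples for 61.8% to 70.8% of low values, and 2 such steps were taken as 1 fragment. Python 3.11.15, pandas 2.3.3 and numpy 2.4.6 were used. The steps were tested on simulated data, with larger changes and in more highly expressed genes than most members. That test does not cover small differences of low genes. Replicate spread could not be measured.

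The genes and lists were chosen with earlier results of these data known. All 10 members were named, and of each list at most 4 with the largest difference; Meis1 was added for its known role, and Xist, Ddx3y and Setd2 as checks, after values were seen. A few list genes are not reported here and are left out of the list counts. Alternatives changed the scaling, pseudocount, filter, unlisted value and row rule, and 3 were added after the data were seen.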

Additional observations from a re-analysis of the deposited data

Results flagged for a closer look

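The KO minus WT difference had opposite signs in young and old cells for 3 members. For Hoxa7 the difference was -0.06 in young and 0.20 in old cells, so that the old difference stood 0.26 above the young one. For Hoxb3 it was -0.26 in young and 0.20 in old cells, 0.46 apart. For Hoxb4 it was -0.22 in young and 0.29 in old cells, 0.51 apart. The counting errors of these gaps were 0.30, 0.34 and 0.28 (1 SE) for Hoxa7, Hoxb3 and Hoxb4, so none of them reached 2 such errors. With 1 library per group the difference between the ages was not tested.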

How the results depend on the processing

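No paired analysis was possible because each group holds 1 library, and no library could be left out of a comparison. None of the 15 KO minus WT differences of measured members changed sign under any alternative that gave it a value. Changes of pseudocount, filter, unlisted value or member set could not turn a sign. Only the alternatives of scaling and row rule could have done so. The young median of -0.22 was -0.30 unscaled, where the median of all genes fell by 0.10, -0.33 with a pseudocount of 0.1 and -0.35 with none. The old median of -0.21 was -0.37 with Hoxa4 and Hoxa6 and -0.0072 without Hoxa3, both chosen after the data were seen; fewer or other members are the cause by construction. The young count of 2-fold members, 1, became 0 over genes listed in all 4 libraries, which leaves out Hoxa2. The old count, 0, became 1 with a pseudocount of 0.1, with none, with unlisted genes at 0 and with Hoxa4 and Hoxa6 included. At an FPKM of 1 and 2 kb, counting error alone was 22.9% to 23.7%, which limits Hoxa10, Hoxb2 and Hoxb3 most.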
